A study of Caenorhabditis elegans with 2 samples.

Results

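The RNAs of ribonuclease P, ribonuclease MRP, the signal recognition particle and the Ro particle are described here, through the peaks of a tagged protein at the 8 Caenorhabditis elegans genes that encode them: rpr-1, mrpr-1, yrn-1, srpr-1.1, srpr-1.2, srpr-2.1, srpr-2.2 and srpr-3. The genes were chosen by name from the RefSeq annotation of the WBcel235 assembly, out of 46890 annotated nuclear genes, and with the peak signal of these same lists already known from earlier work, in which rpr-1 stood near the top. The values below are therefore a description, with no test. Every peak whose summit lay within 500 bp of a gene's span was counted.

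The data are chromatin immunoprecipitation with sequencing (ChIP-seq) on whole worms of strain OP757, genotype unc-119(tm4063), which carry the transgene wgls757 with F57A8.1 joined to TY1, EGFP and 3xFLAG and a working unc-119 copy. Both samples form 1 group, mixed-sex young adults aged 65 hours after synchronization as starved L1 larvae, and are numbered as biological replicates 1 and 2; there is no second condition. Precipitation used an antibody against GFP. The protein was thus a fusion expressed from a transgene, in 1 line, and whole worms mix all tissues. RefSeq names the product of F57A8.1 as Protein TSSC4; the human protein of that name is known as an assembly factor of the U5 particle of the spliceosome.

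Ribonuclease P cleaves the 5′ leader from tRNA precursors, and its close relative ribonuclease MRP cleaves precursor ribosomal RNA; each has a catalytic RNA core, encoded by rpr-1 and mrpr-1. The signal recognition particle (SRP) binds signal peptides as they leave the ribosome and brings the ribosome to the endoplasmic reticulum; its RNA scaffold is encoded by the srpr genes. Y RNAs are small cytoplasmic RNAs bound by the Ro protein, and yrn-1 is the worm gene for one. In animals these RNAs are products of RNA polymerase III. RNase P, MRP and Y RNA genes are in general read from promoters that lie before the gene, with a proximal sequence element and a TATA box, whereas SRP RNA and tRNA genes use sequences inside the gene.

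Short words before the start were compared among the 8 genes. In the 250 bp before and 50 bp after the start, rpr-1, mrpr-1 and yrn-1 each held AACNC followed, after 6 more bases, by TGTC, on the gene's strand. Counting the first base of the gene as 0, the pair began at position −66 in rpr-1, −68 in mrpr-1 and −66 in yrn-1, and TATATA began 36 bp after the start of the pair in all 3 genes. In mrpr-1 another, overlapping TATATA began 34 bp after it. This pair of words was picked after the 3 sequences were seen, so its presence in these 3 genes describes them and supports no kind of promoter. TATATA alone was also before srpr-1.1 and srpr-1.2. Among the 1367 genes of 6 other short RNA classes (tRNA, snoRNA, snRNA, spliced-leader, miRNA precursor and rRNA genes), 90 (6.58%) held the pair: 31 of 99 snRNA, 9 of 30 spliced-leader, 38 of 346 snoRNA, 7 of 260 miRNA and 5 of 612 tRNA genes, and 0 of 20 rRNA genes. Both the pair and a TATATA within 60 bp after it were found in 9 of these genes (0.658%), 8 of them snRNA genes. In all 9 a TATATA began 36 bp after the start of the pair. Where a gene held more than 1, the distance nearest to 36 bp was taken. The stretches from 80 bp before to 10 bp after the start are shown because they carry these words, which are in capitals. They include the snRNA genes W05B2.8, which had a thresholded peak, and K09B11.11, which had no summit within 500 bp in any list; these were chosen after their values were seen. RefSeq build WBcel235 supplied all sequences, and each is written 5′ to 3′ on the gene's strand.
mrpr-1 (chrII:7200153-7200242, plus strand): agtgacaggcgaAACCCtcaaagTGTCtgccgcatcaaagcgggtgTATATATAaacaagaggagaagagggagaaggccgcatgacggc
yrn-1 (chrIV:7499428-7499517, plus strand): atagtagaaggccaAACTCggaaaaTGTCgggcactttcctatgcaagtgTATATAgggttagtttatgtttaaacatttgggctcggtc
W05B2.8 (chrIII:10989599-10989688, plus strand): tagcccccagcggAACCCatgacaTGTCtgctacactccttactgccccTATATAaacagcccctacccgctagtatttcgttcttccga
K09B11.11 (chrIV:13435877-13435966, minus strand): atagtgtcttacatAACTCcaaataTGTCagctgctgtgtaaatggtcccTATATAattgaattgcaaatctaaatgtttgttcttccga

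None of the 5 SRP RNA genes held the pair. The 4 other than srpr-3 had AAAAACC directly before the first base, a word at that place in 1 of the 1367 other genes (0.0732%), also picked after the sequences were seen; it is in capitals here.
srpr-1.1 (chrIII:4379197-4379286, minus strand): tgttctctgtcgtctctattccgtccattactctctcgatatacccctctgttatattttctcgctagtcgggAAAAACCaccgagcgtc
srpr-1.2 (chrIII:4369388-4369477, plus strand): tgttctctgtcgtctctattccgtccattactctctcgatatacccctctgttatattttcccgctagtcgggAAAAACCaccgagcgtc
srpr-2.1 (chrIII:5211140-5211229, plus strand): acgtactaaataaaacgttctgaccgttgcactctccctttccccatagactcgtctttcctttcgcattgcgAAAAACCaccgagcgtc
srpr-2.2 (chrIII:5031699-5031788, minus strand): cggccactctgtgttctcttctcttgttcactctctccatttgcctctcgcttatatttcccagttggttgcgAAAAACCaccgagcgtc
srpr-3 (chrV:9293623-9293712, minus strand): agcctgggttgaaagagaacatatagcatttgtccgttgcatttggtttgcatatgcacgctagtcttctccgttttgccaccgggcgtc

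The deposited files hold 4 peak lists, in ce11 coordinates, the same sequence as WBcel235. Each replicate's list and the list called on both replicates together (the pooled list) held 30000 peaks, and a thresholded list held the 295 highest pooled peaks, down to a signal of 85.7. Signal is the authors' enrichment value of a peak; its median was 34.9 in the pooled list, 19.0 in replicate 1 and 21.9 in replicate 2, so values are compared within a list and ranks between lists. A second value of each peak is the authors' −log10 q, which is higher where the q-value is smaller. Read depth is unknown. Since 26.7% of the genome lay within 500 bp of a pooled summit, against 0.293% for thresholded summits, a pooled peak at a gene says little without its rank.

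Peaks at the 8 genes ran from the top to the bottom of the lists. Thresholded summits lay at 2 of the 8, rpr-1 and mrpr-1, beside 11.9% of the 1367 genes of the other short RNA classes and 1.39% of the 5330 other RefSeq genes of type ncRNA that are 100 to 300 bp long. The classes ranged from 16.7% of spliced-leader, 16.5% of tRNA and 13.3% of snoRNA genes to 6.06% of snRNA, 1.92% of miRNA and 0 of 20 rRNA genes. Pooled summits lay at all 8, beside 65.8% of the other short RNA genes and 47.9% of the other ncRNA genes. The tRNA genes, at 83.2%, came nearest. Over all 46882 other annotated genes of any type and length, 1.3% had a thresholded and 41.1% a pooled summit. The median pooled rank of the highest peak was 3681 over the 8 genes and 2386.5 over the 900 other short RNA genes with a summit. The −log10 q of the highest pooled peak was 2.51 at rpr-1 and at mrpr-1, 1.67 at srpr-1.1, and between 0.144 and 0.596 at the other 5 genes. By the authors' own value the pooled peaks at these 5 genes are therefore weak calls. The value 2.51 was the highest in the pooled list, but peaks of rank 4 (rpr-1) and rank 132 (mrpr-1) share it, so it does not order them. For replicate 1 the −log10 q was 2.03 at rpr-1 and 1.69 at mrpr-1, and for replicate 2 it was 2.31 and 1.77. With 8 genes, 5 of them copies of each other, these shares were not tested.

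**Figure D1:**
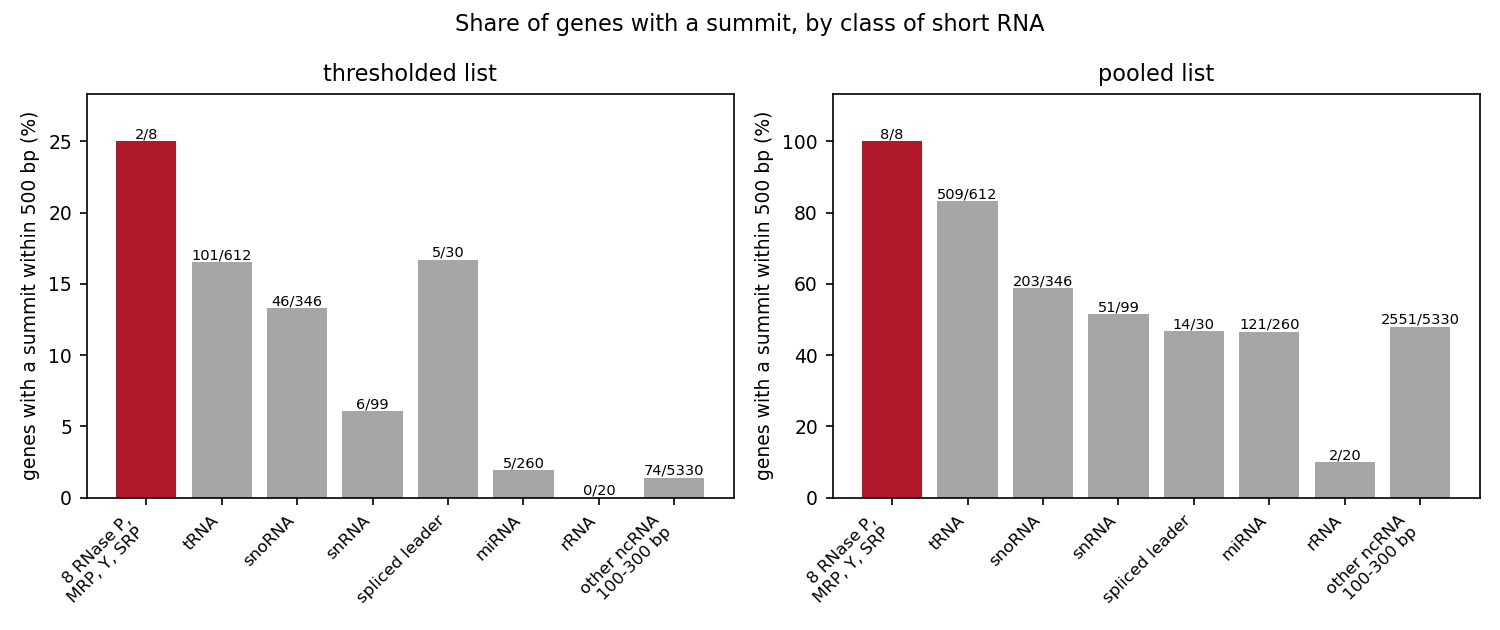
Share of genes (%) that have a summit at most 500 bp away, for the 8 RNase P, MRP, Y and SRP RNA genes (red) and for other classes (grey), in the thresholded list (left) and the pooled list (right), with counts above the bars. The 8 genes have 2 thresholded and 8 pooled summit-bearing members, beside 101 and 509 of 612 tRNA genes.

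At rpr-1 (Y48G10A.7; 13463955 to 13464207 on the plus strand of chromosome I), which encodes the catalytic RNA of ribonuclease P, signal was 149 in replicate 1 and 205 in replicate 2, rank 4 and rank 5, and 353 in the pooled and thresholded lists, rank 4 in both. These are 7.82, 9.35 and 10.1 times the medians of the replicate 1, replicate 2 and pooled lists. Both replicates placed the gene among their 5 strongest peaks. Of the 1367 other short RNA genes, 4 had a higher pooled peak within 500 bp, all snoRNA genes.

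The rpr-1 summit was at 13463991 in replicate 1 and the pooled list, 36 bp inside the gene, and at 13463972 in replicate 2, 17 bp inside it. The peak was narrow, 192 bp in the pooled list where 29985 of 30000 peaks were 356 bp wide, 129 bp in replicate 1 and 157 bp in replicate 2. The usual width was 316 bp in replicate 1 and 384 bp in replicate 2. Widths other than the usual one were given to 15 pooled peaks and to 13 of the 295 thresholded peaks, so mostly to the strongest. It covered 42.7% of the gene, at its 5′ end. Replicate 2 listed a second summit near the 3′ end, at 13464173, with signal 38.4 and rank 1590. The gene lies in an intron of ints-8, a gene of the Integrator complex on the opposite strand, and this was the only pooled summit in the 15016 bp of ints-8. The next pooled summits were 46560 bp to the left and 26674 bp to the right, with signals of 44.3 and 32.4.

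The gene for the RNA of ribonuclease MRP, mrpr-1 (E04F6.16; chrII:7200233-7200418, plus strand), had a signal of 45.7 in replicate 1 and 53.1 in replicate 2, rank 223 and rank 325, and 107 in the pooled list, rank 132. These were 2.40 and 2.42 times the list medians, so the replicates placed it alike, well below rpr-1. Among the other short RNA genes, 101 had a higher pooled peak, of which 58 were tRNA and 36 snoRNA genes. The summit was 44 bp inside the gene in replicate 1 and 25 bp in replicate 2, but 113 bp in the pooled list, and the 356-bp pooled peak covered the whole gene. The gene is printed with the base at the pooled summit in capitals (chrII:7200233-7200418).
mrpr-1: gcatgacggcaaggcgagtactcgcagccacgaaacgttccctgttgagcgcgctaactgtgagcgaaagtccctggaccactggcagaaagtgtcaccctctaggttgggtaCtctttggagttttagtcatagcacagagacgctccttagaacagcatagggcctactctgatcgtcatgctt

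Replicate 1 also listed a weak summit 63 bp beyond the end of mrpr-1, with signal 17.0 and rank 20654. The gene stands between protein-coding genes: E04F6.6 starts 667 bp to the left and runs away on the opposite strand, and pcrg-1 starts 130 bp to the right on the same strand, but the highest summits of all 3 lists were inside mrpr-1 itself. The nearest pooled summits outside the window, 1679 bp to the left and 1948 bp to the right, had signals of 29.7 and 30.1.

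The Y RNA gene yrn-1 (F55G1.16; chrIV:7499508-7499612, plus strand) carries the same upstream words and had no strong peak. Signal was 18.7 in replicate 1, rank 15860, 17.9 in replicate 2, rank 24643, and 34.4 in the pooled list, rank 15527. Each value was below its list's median, at 0.983, 0.814 and 0.988 times it. The summits were at 7499509 in replicate 1, on the second base of the gene, at 7499627 in replicate 2, 15 bp beyond its end, and at 7499530 in the pooled list, 22 bp inside it. Replicate 1 had a further summit 499 bp beyond the gene, just inside the window, with signal 15.4 and rank 26230, and replicate 2 had 2 before it, outside the window, at 726 bp with signal 21.1 and at 937 bp with signal 32.5. Within 1000 bp the highest pooled peak was 884 bp before the gene and had a higher signal, 47.4 (rank 4840). It lay, like yrn-1, in an intron of the opposite-strand gene F55G1.15. The ncRNA gene F55G1.20 overlaps yrn-1 on the other strand, and ChIP peaks carry no strand. The gene is printed with the base at the pooled summit in capitals (chrIV:7499508-7499612).
yrn-1: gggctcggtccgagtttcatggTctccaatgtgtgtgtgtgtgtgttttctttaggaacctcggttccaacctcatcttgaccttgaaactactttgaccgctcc

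The 3 genes with the shared upstream words thus held ranks 4, 132 and 15527 in the pooled list. Over the other short RNA classes, 9 of the 90 genes with the pair had a thresholded summit and 65 (72.2%) a pooled one, beside 154 (12.1%) and 835 (65.4%) of the 1277 genes without it. Of the 9 with TATATA as well, 5 had a pooled summit: W05B2.8 (rank 23), F54D8.7 (rank 385), R07E5.16 (rank 654), Y17G9A.85 (rank 3143) and T08B6.62 (rank 4240). Only W05B2.8 had a thresholded one. The other 4, W05B2.9, K09B11.11, K09B11.14 and K09B11.16, had no pooled summit within 500 bp.

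**Figure D2:**
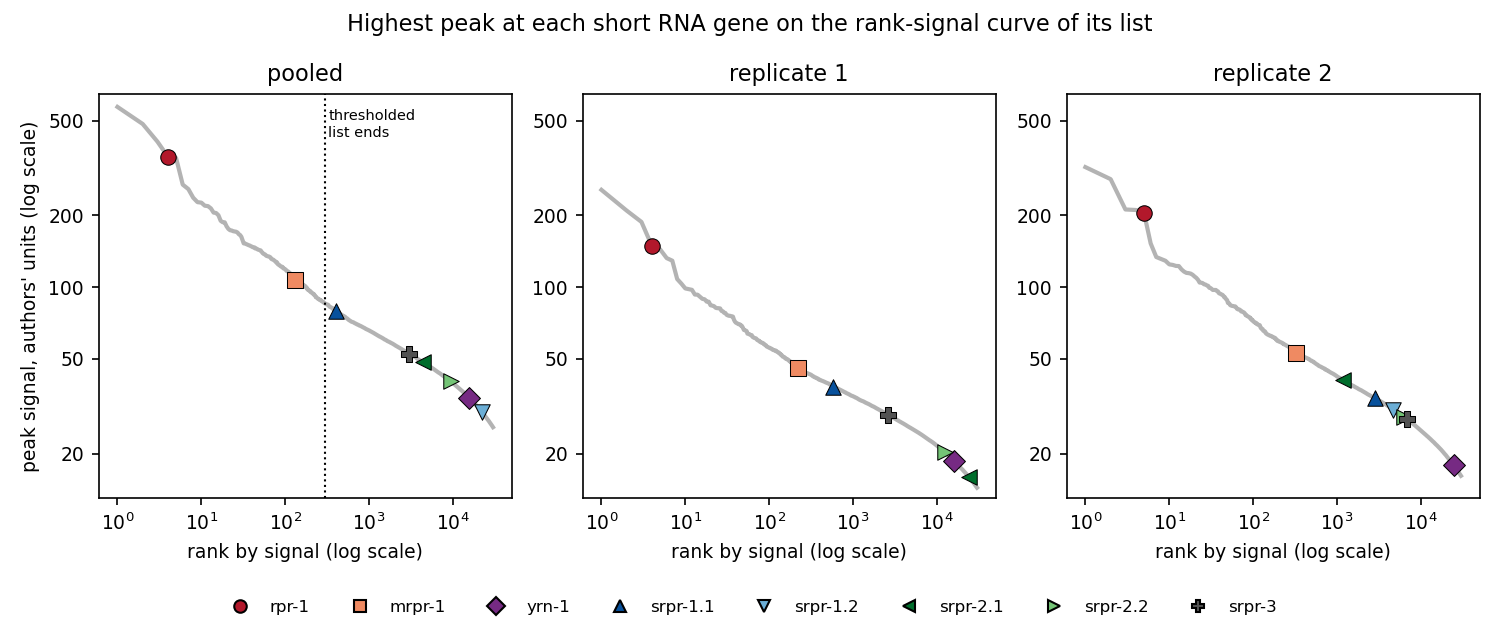
Signal of the highest peak within 500 bp of each of the 8 genes (symbols) against its rank, on the curve of all peaks (grey line) of the pooled, replicate 1 and replicate 2 lists; both axes are logarithmic and the dotted line marks where the thresholded list ends. In every panel rpr-1 is at rank 4 or 5 and mrpr-1 between 132 and 325, while yrn-1 lies beyond rank 15000.

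The 5 SRP RNA genes fell into close copies by sequence. srpr-1.1 and srpr-1.2 were identical at 294 of 299 aligned positions (98.3%) and at 95 of the 100 bp upstream. srpr-2.1 and srpr-2.2 were identical at 296 of 299 positions (99.0%), with 34 of 100 upstream bases in common. Upstream bases were compared position by position without gaps, so an inserted or lost base would lower the count. Counted so, srpr-2.2 shared more upstream bases, 59 of 100, with srpr-1.1 and with srpr-1.2 than with srpr-2.1. Between the 2 pairs identity of the genes themselves was 94.0% to 94.3%, and srpr-3 shared 82.0% to 82.9% with the other 4. Reads from such copies can be hard to place. Of all 50-bp stretches inside the gene, 76.7% of those of srpr-1.1, 58.8% of srpr-1.2, 61.2% of srpr-2.1 and 59.6% of srpr-2.2 also occurred elsewhere in the genome, in each case in another srpr gene. None of those of srpr-3, rpr-1, mrpr-1 or yrn-1 did. At 100 bp the shares were 45.7%, 45.5%, 29.5% and 29.5% for the 4 copies. In the 500 bp on either side, at most 1.77% of 50-bp stretches of an srpr gene were repeated. No source used here gives the read length or the treatment of reads with several matches, and their part in the signal at these copies was not tested.

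**Figure D3:**
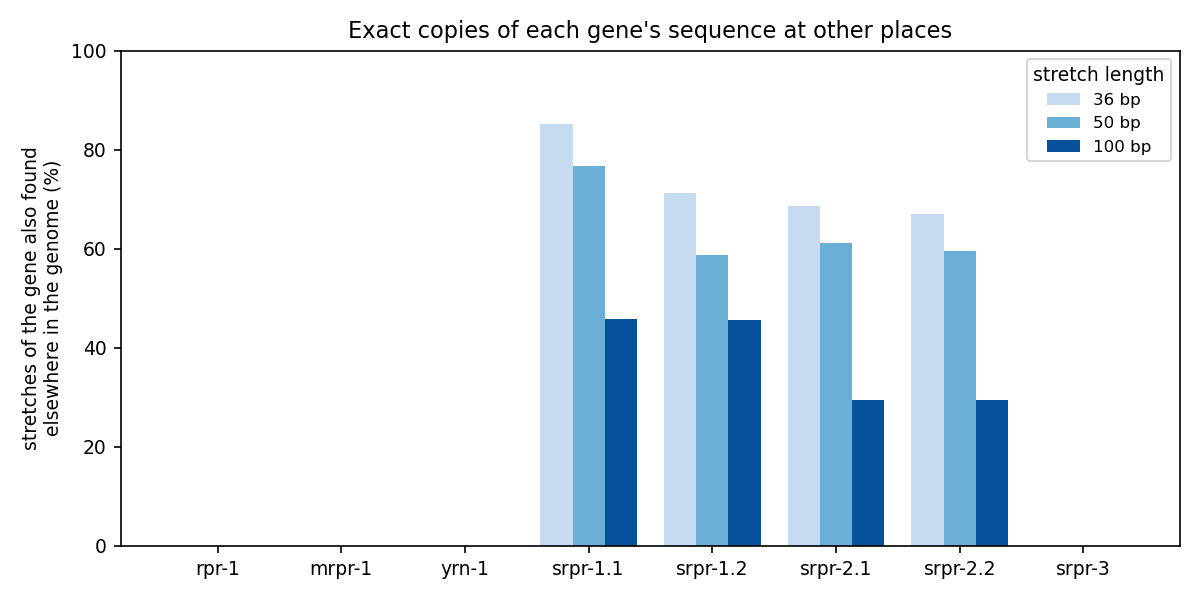
Share (%) of all stretches of 36, 50 and 100 bp inside each gene that also occur exactly elsewhere in the nuclear genome, on either strand. Bars are above 0 only for srpr-1.1, srpr-1.2, srpr-2.1 and srpr-2.2, from 29.5% to 85.2%, and are at 0 for srpr-3 and the 3 other genes.

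The highest of the SRP RNA genes, srpr-1.1 (B0284.6; chrIII:4378909-4379206, minus strand), missed the thresholded list with a pooled signal of 79.3, rank 399. Signal was 38.3 in replicate 1, rank 582, and 34.2 in replicate 2, rank 2854. The pooled summit was not in the gene: at 4378798 it lay 111 bp beyond the 3′ end, in a coding exon of pals-26, which ends 1 bp from srpr-1.1 on the opposite strand. Replicate 1 had its highest summit there too, 105 bp beyond the end. Replicate 2 had a summit at that place, 115 bp beyond the end, with signal 30.7 and rank 4628, but its highest was inside the gene, 136 bp from the start. Replicate 1 listed a further summit 409 bp upstream, in an intron of B0284.3, with signal 22.8 and rank 8162.

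The near-identical srpr-1.2 (B0285.12; chrIII:4369468-4369766, plus strand), in an intron of the same-strand gene ckb-2, had the lowest pooled signal of the 8. Its pooled signal was 29.8, rank 22285, with the summit 238 bp inside the gene. Replicate 2 gave 30.6, rank 4701, at 41 bp and 19.5, rank 20431, at 270 bp. Replicate 1 listed no summit within 500 bp; the nearest was 946 bp upstream, with signal 14.8 and rank 28411. No other pooled summit lay in the 2212 bp of ckb-2.

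In the other pair, srpr-2.1 (ZC155.8; chrIII:5211220-5211518, plus strand) had 2 pooled summits inside the gene, at 70 bp and 283 bp from its start, with signals of 48.5 (rank 4341) and 45.6 (rank 5739). The replicates divided between these places: replicate 1 had a summit at 30 bp with signal 15.9, rank 24211, and replicate 2 one at 246 bp with signal 40.8, rank 1179. The gene stands between protein-coding genes, with ZC155.4 ending 477 bp away. At srpr-2.2 (R144.15; chrIII:5031410-5031708, minus strand), in an intron of the opposite-strand kinesin gene klp-6, the pooled summit was 28 bp upstream of the start with signal 40.3, rank 9351. It lay inside R144.16, an ncRNA gene that overlaps the start of srpr-2.2. Replicate 1 gave 20.3, rank 12313, at 220 bp inside and 18.7, rank 15822, at 43 bp upstream. Replicate 2 gave 28.5, rank 6251, at 91 bp upstream.

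The most distant copy, srpr-3 (F44A2.8; chrV:9293334-9293632, minus strand), had a pooled signal of 52.6, rank 3021, with the summit 4 bp before the first base. Replicate 1 gave 29.2, rank 2611, at 3 bp before the first base, and replicate 2 gave 27.9, rank 6852, at 170 bp inside. Signal was 1.53 and 1.27 times the list medians of replicates 1 and 2. RefSeq lists the same stretch again as the ncRNA gene F44A2.13, and the peak is counted here once. No protein-coding gene lies within 1168 bp on the left, where the same-strand gene ZK682.7 starts.

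**Figure D4:**
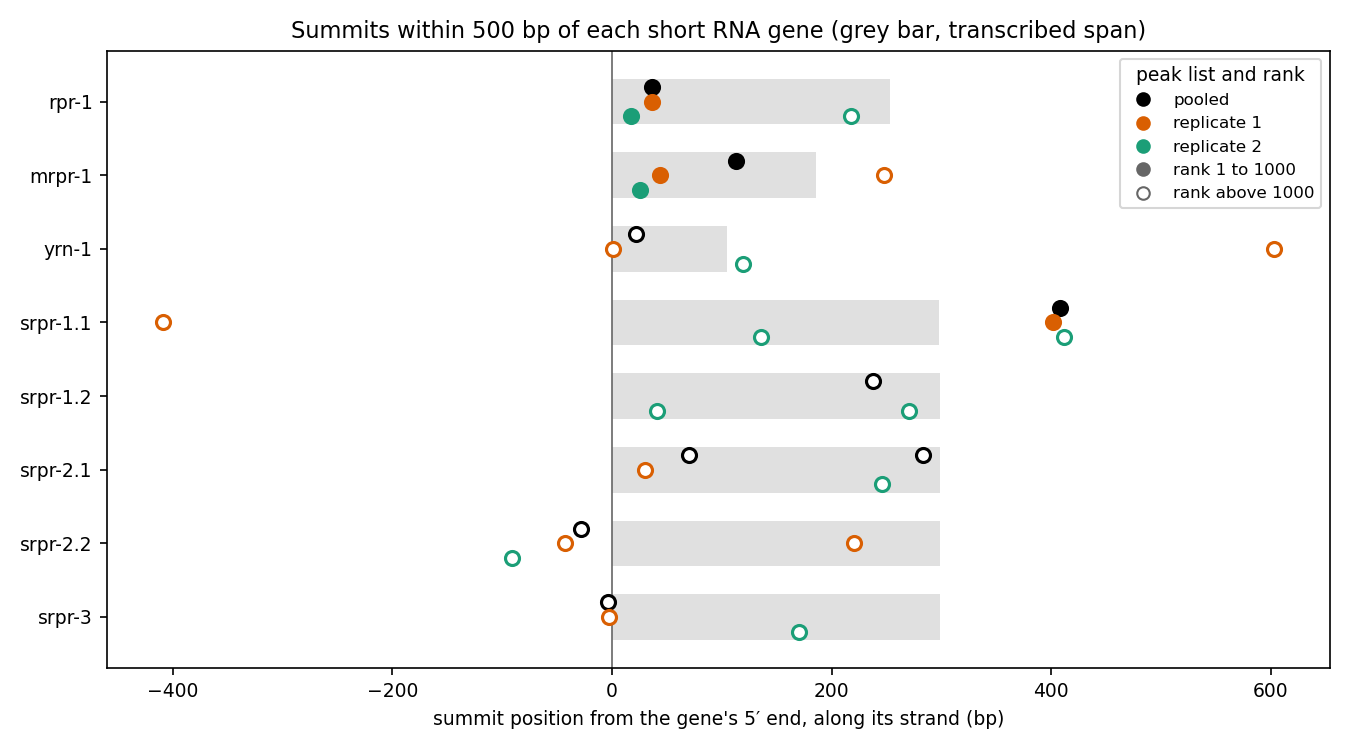
Position of every summit within 500 bp of each gene, in bp from the gene's first base along its strand (0), for the pooled, replicate 1 and replicate 2 lists; grey bars are the genes, and filled points are peaks of rank 1 to 1000. At rpr-1 and mrpr-1 the strong summits lie 17 to 113 bp inside the gene, while at srpr-1.1 they lie beyond its 3′ end.

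By the position of the highest summit, the replicates agreed most closely at the 2 genes with the strongest peaks. Both are in the thresholded list, which was itself filtered by irreproducible discovery rate, so agreement there was partly selected. At rpr-1 and mrpr-1 the highest summits of the replicates were 19 bp apart. At the other 5 genes with a summit in both lists the highest summits were 118 to 311 bp apart, although at srpr-1.1 a lower summit of replicate 2 was 10 bp from the highest of replicate 1, and at srpr-2.2 the closest pair of summits was 48 bp apart. Rank differed most at srpr-2.1, 24211 in replicate 1 and 1179 in replicate 2. As a ratio, the ranks of the weak yrn-1 (15860 and 24643) differed about as little as those of mrpr-1 (223 and 325). The replicate order was mixed, since rpr-1, mrpr-1, yrn-1, srpr-1.1 and srpr-3 ranked higher in replicate 1, and srpr-2.1 and srpr-2.2 higher in replicate 2.

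**Figure D5:**
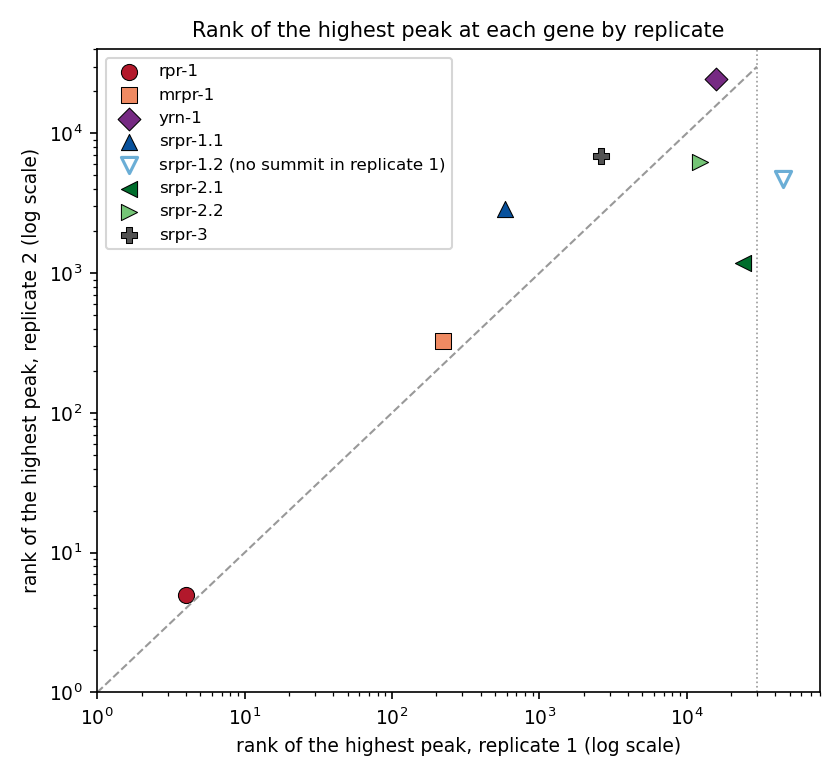
Rank of the highest peak within 500 bp of each gene in replicate 1 (x) and replicate 2 (y), both logarithmic; the dashed line marks equal rank, and the open symbol right of the dotted line is srpr-1.2, with no summit in replicate 1. rpr-1 (4 and 5), mrpr-1 (223 and 325) and the weak yrn-1 (15860 and 24643) lie near the line, and srpr-2.1 (24211 and 1179) lies farthest from it.

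Other words were counted inside, after and before the genes. The B box core GTTCNANNC, the inner promoter word of tRNA genes, was in yrn-1 (63 bp from the start) and in none of the other 7, beside 44.8% of the other short RNA genes. The A box was in srpr-2.1 and srpr-2.2, at 222 bp in both, beside 48.4%, and beside 96.9% of tRNA genes. A run of at least 4 T, the usual end signal of RNA polymerase III, lay in the 20 bp after the end of 5 of the 8 genes (62.5%), beside 64.4% of the other short RNA genes and 98.4% of tRNA genes; the 5 were mrpr-1, yrn-1, srpr-1.2, srpr-2.1 and srpr-2.2. By this count the share among the 8 was near that of the other classes together. A run that crosses the annotated end was cut by this window. Counted from the last 5 bases of the gene onward, the longest run was 5 T at rpr-1 and srpr-1.1 and 4 T at srpr-3. The other classes were not scanned that way. The word GAACCC, on either strand, was before rpr-1 (position −67, overlapping the pair) and srpr-1.2 (−236) and at 13.4% of the other genes. AGAGCG was before srpr-3 (−125) and at 18.4% of them, and ACGCAG at none of the 8 and 13.2% of them. These words were counted with earlier results of these data known, so their shares describe the genes and were not tested. TATATA was before 5 of the 8 and at 9.07% of the other genes, at any place in the window. It began at −30 in rpr-1, at −34 and −32 in mrpr-1 and at −83 and −30 in yrn-1. The matches in srpr-1.1 ran from −189 to −163, and the match in srpr-1.2 was at −216. TATAAA was before mrpr-1 and srpr-2.1 and at 16.0% of them. No match or lack of one says whether a factor binds there.

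Peaks at the genes for proteins of the same particles were about as frequent as at protein-coding genes in general. A list of 17 protein-coding genes was taken by RefSeq product name (SRP, ribonuclease P or MRP subunits) with rop-1, the Ro protein, and ssb-1, the La protein. It includes mig-2, a Rac-like GTPase, by the product name of a single transcript. Thresholded summits lay within 500 bp of the 5′ end at 0 of the 17, beside 0.531% of 19971 protein-coding genes, and pooled summits at 6, beside 31.9%. Neither count is a result about these genes, since both lie near the share of all protein-coding genes. The highest was F21D5.7, for the SRP protein that binds signal peptides, with a signal of 28.7 in replicate 1, 34.5 in replicate 2 and 66.9 in the pooled list (rank 912). Lower pooled peaks lay at F25G6.8, srpa-72, rop-1 and H35B03.2, with signals of 39.2, 35.1, 33.6 and 29.3. The pooled rank was 15527 at yrn-1 and 16579 at rop-1, whose product binds the Y RNA.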

How the data were processed

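Peaks were called by the authors per replicate and on both replicates together, each against a control, and the thresholded list, filtered by irreproducible discovery rate, was derived from both replicates, per the deposited file descriptions. Column 7 of each deposited list, a signal value, and column 9, a −log10 q, were used as the authors' own. The caller, aligner, filters, depth and scaling: not given in the sources used here. Ranks, distances and shares were computed here with Python 3.11.15, numpy 2.4.6 and pandas 2.3.3, in 1-based coordinates, from the summit (peak start plus the deposited offset in column 10). Genes and sequences came from RefSeq WBcel235. Words were sought from 250 bp before to 50 bp after each gene start, the A box and B box patterns inside the gene, and T runs of 4 or more in the 20 bp after the end. The counting was tested on simulated summits. All 8 genes were named, with protein partners by product name; members and lists were chosen with earlier results of these data known. No test was run: there is 1 group of 2 samples. The values of 1 partner gene are not reported here.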

Additional observations from a re-analysis of the deposited data

How the results depend on the processing

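Of the 8 genes, 2 had a thresholded summit within 250 bp, 100 bp or 1000 bp, by overlap of the peak with the gene, and in the upper 147 peaks. In the 295 highest peaks of single replicates the count was 1 to 2: mrpr-1, ranked 325 in replicate 2, was missed without replicate 1. All 8 had a pooled summit within 250 bp or 1000 bp, and 7 within 100 bp, where srpr-1.1 was missed. In the upper 15000 pooled peaks there were 6, without yrn-1 and srpr-1.2. There were also 6 when the gene had to be the nearest to a summit, ties kept, without srpr-1.1 and srpr-2.2. Of these 6, rpr-1, yrn-1, srpr-1.2 and srpr-3 tied with a gene that overlaps them. Single replicate lists gave 7 to 8. The pooled rank moved with the window only at yrn-1, 4840 within 1000 bp. Depth is unknown, so weak signal at yrn-1 or srpr-1.2 cannot be read as absence of binding. No paired analysis was possible because there is 1 group.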
